A study of Mus musculus with 28 samples.

Results

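Wnt ligands, their receptors, their secreted antagonists and the genes that report and damp the pathway were followed in mouse P19 cells, an established embryonal carcinoma line, during differentiation towards neural cells with retinoic acid. The set was chosen by symbol: protein-coding genes whose names begin with Wnt, Fzd, Dkk, Rspo or Sfrp followed by a number, together with Frzb, Axin2, Sp5, Lef1, Tcf7, Nkd1, Notum, Lrp5 and Lrp6. It held 50 of 55385 gene identifiers in the RNA table. There were 19 Wnt ligands, 12 receptors and co-receptors (10 Frizzled genes, Lrp5 and Lrp6), 4 R-spondins, 10 secreted antagonists and 5 targets, feedback genes and transcription factors. The rule itself used no measured value, but the set was chosen with earlier results of these data known. Of the 50 genes, 48 passed the filter on low counts and were tested. The exceptions were Wnt10a and Dkk4. Wnt10a reached at most 0.629 CPM (counts scaled to the library total times a normalisation factor) in any library. Dkk4 had no count in any of the 10 RNA libraries.

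RNA-seq covered 10 libraries, 2 in each of 5 groups. Day 0 cells were grown in serum without retinoic acid. All other groups received 1 µM retinoic acid: day 2 cells for 2 days with DMSO, day 4 cells for 4 days to become neural stem and progenitor cells, and day 8 cells for 4 days followed by replating in B27 neuronal medium up to day 8. In the drug arm, MS-275, which inhibits class I histone deacetylases, was added on day 1 of retinoic acid as 1 µL of a stock at 10 mM, and the arm was set against the DMSO arm at day 2. No source used here gives the final concentration of MS-275. Native ChIP-seq gave peak lists of acetylated (H3K9ac) and crotonylated (H3K9cr) lysine 9 and of lactylated lysine 18 (H3K18la) of histone H3, from 2 libraries a mark for day 4 cells and from 1 a mark for each day 2 arm. Open chromatin was mapped in day 4 cells with 2 ATAC-seq libraries. All samples came from 1 cell line, and cells were measured in bulk, so fewer cells of a type and less RNA per cell cannot be told apart. The series calls its replicates biological without saying how far apart the cultures were grown, and p-values measure the spread between these libraries.

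Wnt proteins are secreted lipid-modified signals that bind Frizzled receptors. With the co-receptors Lrp5 and Lrp6 they stabilise β-catenin, which joins Tcf and Lef factors on DNA and turns on target genes, some of which feed back on the pathway. In the neural tube of the mouse embryo, Wnt1 and Wnt3a are made in the dorsal midline, and Wnt signals pattern the tube and keep progenitors dividing. R-spondins strengthen the signal at the receptor, while Dkk, Sfrp, Frzb and Notum proteins weaken it outside the cell.

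Total estimated counts lay between 18115738 and 19586107 per RNA library. Marker genes were checked against the labels. The summed level of 6 pluripotency markers was 2241 and 2215 CPM at day 0, 51.7 and 49.5 CPM at day 2 with DMSO, 3.15 and 4.55 CPM at day 4 and 51.3 and 60.4 CPM at day 8. The sum of 6 neuronal markers was 335 and 349 CPM at day 0, 296 and 271 CPM at day 2 with DMSO, 2218 and 2128 CPM at day 4 and 3019 and 2839 CPM at day 8. For 6 neural stem and progenitor markers the sum was 336 and 340 CPM at day 0. It was 823 and 820 CPM at day 2 with DMSO and 1164 and 1102 CPM at day 4. At day 8 it was 995 and 1017 CPM. Markers of fibroblasts and mesenchyme also moved: all 6 were at or above 1 CPM on average in every group but day 0, where 3 were. Their sum was 46.8 and 38.4 CPM at day 0 and 38.7 and 39.4 CPM at day 2 with DMSO. It was 781 and 894 CPM at day 4 and 1186 and 1234 CPM at day 8. None of these 6 markers was at 0 in both libraries of a group. Their part in the results below was not tested.

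Wnt pathway genes changed broadly between day 0 and the later groups. No group at day 2 or later went without retinoic acid. Up to day 4 of the time course, retinoic acid, time in culture and, at day 2, DMSO thus cannot be told apart. Day 8 cells had retinoic acid for 4 days and were then replated in B27 neuronal medium. At day 8 against day 4, the end of retinoic acid, the medium, replating and time cannot be told apart either. At day 2 with DMSO against day 0, 30 of the 48 tested members rose, 9 fell and 9 were not called, at an adjusted p under 0.05 over 17789 genes; of all genes tested, 64.6% were called, 32.4% higher and 32.2% lower. The median log2 fold change was 1.45 over the members and 0.01 over all genes. At day 4 against day 0, 28 members rose and 12 fell, where 72.3% of all genes were called (36.2% higher, 36.1% lower), and the members' median was 1.93. At day 4 against day 2 with DMSO, 20 rose and 16 fell, where 61.2% of all genes were called (30.6% in each direction), with a median of 0.12. At day 8 against day 4, 7 rose and 23 fell, where 41.5% were called (21.7% higher, 19.8% lower), with a median of -0.39. With MS-275 against DMSO, 12 rose and 21 fell, where 63.3% were called (31.9% higher, 31.4% lower), with a median of -0.07. These comparisons share groups, so they are not independent of each other. The members' counts at day 2, at day 4 against day 0 and at day 8 thus leaned to 1 side, while the counts over all genes were nearly even.

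Among the 4 groups without drug, 17 of the 48 tested members had their highest mean level at day 4 (35.4%, against 18.4% of all 17789 genes), 12 at day 0 (25%, against 33.1%), 12 at day 2 with DMSO (25%, against 22.5%) and 7 at day 8 (14.6%, against 25.9%). The day 4 set held 9 ligands, Fzd1, Fzd9, Fzd10, Notum, Axin2, Lef1, Nkd1 and Sp5.

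**Figure D1:**
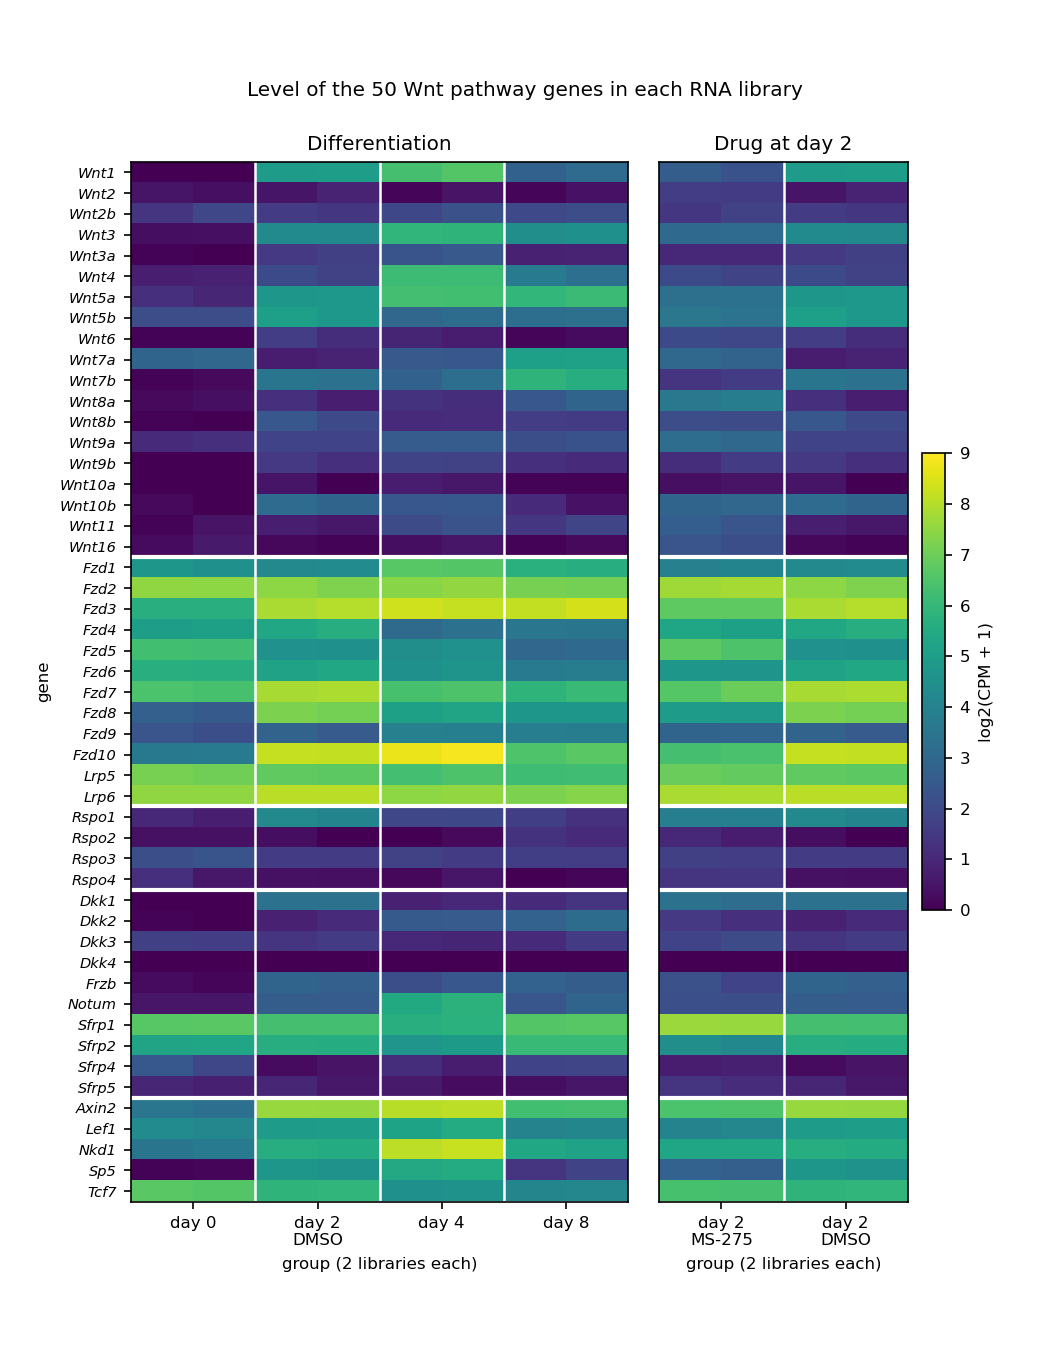
Levels of the 50 genes, in rows by role, in each RNA library, as log2(CPM + 1) from 0 (dark) to 9 (yellow). The left block follows day 0 to day 8 without drug, and the right block sets MS-275 beside the same DMSO libraries. Most ligand rows are dark at day 0, when 4 or 5 of 19 ligands reached 1 CPM, and brighten at day 2 and day 4.

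The sequences before the starts of 3 genes on which the results turn are shown here: Wnt1, the ligand with the largest called fall under MS-275, and Dkk1 and Sp5, an antagonist and a target that hold the core letters bound by Tcf and Lef factors. Each line gives the 250 bases before the RefSeq start (GRCm38.p6), 5′ to 3′ on the gene's strand. Capitals mark a match to CTTTGAA or CTTTGAT, searched on both strands.
Wnt1: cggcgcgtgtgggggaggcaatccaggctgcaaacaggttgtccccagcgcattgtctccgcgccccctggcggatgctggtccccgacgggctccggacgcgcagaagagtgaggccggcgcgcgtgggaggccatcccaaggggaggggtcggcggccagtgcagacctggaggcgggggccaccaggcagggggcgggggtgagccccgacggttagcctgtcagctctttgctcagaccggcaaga
Dkk1: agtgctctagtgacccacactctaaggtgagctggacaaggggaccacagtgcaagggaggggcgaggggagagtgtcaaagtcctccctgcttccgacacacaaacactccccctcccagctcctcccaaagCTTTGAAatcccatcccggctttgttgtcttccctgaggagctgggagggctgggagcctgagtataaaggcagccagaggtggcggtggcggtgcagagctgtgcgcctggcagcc
Sp5: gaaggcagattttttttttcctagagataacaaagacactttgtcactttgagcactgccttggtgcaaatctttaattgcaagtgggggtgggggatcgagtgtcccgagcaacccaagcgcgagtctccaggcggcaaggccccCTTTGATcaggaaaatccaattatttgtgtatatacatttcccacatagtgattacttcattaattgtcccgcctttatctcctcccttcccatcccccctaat
The Wnt1 window was chr15:98789607-98789856 on the plus strand, the Dkk1 window chr19:30549497-30549746 on the minus strand and the Sp5 window chr2:70474673-70474922 on the plus strand. The match began 117 bases before the start of Dkk1 and 104 bases before that of Sp5, and the Wnt1 window held none. RefSeq gave 40 promoter windows for 33 of the 50 members. Of these, 4 held a match (10.0%), at Dkk1, Sp5, Wnt5b and Wnt11, against 6.73% of 21263 windows of protein-coding genes, so the share lay near the background. The members' windows were richer in G and C, with a median of 66.6% against 55.6% for protein-coding genes, and held a median of 18.5 CG pairs against 10. The letters CCGCCC, on either strand, were in 28 of 40 member windows (70.0%) and in 42.6% of those of protein-coding genes. A match is a description of letters, not a bound site.

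Wnt ligands were nearly silent in undifferentiated cells and came on within 2 days of retinoic acid. Their summed level was 16.2 and 18.1 CPM at day 0, 147 and 136 CPM at day 2 with DMSO, 334 and 351 CPM at day 4 and 216 and 219.8 CPM at day 8. The number of ligands at or above 1 CPM was 5 and 4 of 19 at day 0, 14 and 13 at day 2, 15 and 15 at day 4 and 14 and 13 at day 8. Of 18 tested ligands, 13 rose and 1 fell at day 2 against day 0, where 32.4% of all genes rose and 32.2% fell. At day 4 against day 2, 9 rose and 4 fell (30.6% of all genes in each direction). At day 4 against day 0, 14 rose and 1 fell (36.2% and 36.1% of all genes). At day 8 against day 4, 3 rose and 8 fell (21.7% and 19.8% of all genes). The ligands did not move as 1 block: the highest mean without drug came at day 2 for 5 tested ligands, at day 4 for 9, at day 8 for 3 and at day 0 for 1, Wnt16.

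Wnt1, the founding ligand of the canonical pathway, had no count at day 0, and stood at 30.4 and 31.5 CPM at day 2 with DMSO, 80.6 and 95.6 CPM at day 4 and 5.94 and 7.78 CPM at day 8. Against a floor of 3 counts over the 2 day 0 libraries, it was at least 381-fold higher at day 2 (adjusted p = 1.4e-12) and at least 1081-fold higher at day 4 (adjusted p = 1.4e-14). At day 4 against day 2 its log2 fold change was 1.51 ± 0.11, adjusted p = 1.0e-08 (± SE, as in all such values below). At day 8 against day 4 it was -3.68 ± 0.14, adjusted p = 1.3e-11, a 12.8-fold fall. No library of 1 group overlapped with those of the next.

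Wnt3, another canonical ligand, had 0.263 and 0.280 CPM at day 0, 18.2 and 18.1 CPM at day 2 with DMSO, 59.996 and 57.4 CPM at day 4 and 20.7 and 21.7 CPM at day 8. It rose 65.3-fold at day 2 against day 0 (6.03 ± 0.19, adjusted p = 6.6e-14) and 3.24-fold at day 4 against day 2 (1.70 ± 0.08, adjusted p = 2.1e-11), and fell 2.77-fold at day 8 against day 4 (-1.47 ± 0.08, adjusted p = 4.3e-10). Wnt3 overlaps its neighbour Wnt9b by 1098 bases, and no source used here says whether the counting used strand. Wnt9b itself stayed low, at 2.62 and 2.44 CPM at day 4 with no count at day 0. Wnt3a had 0.0525 and 0 CPM at day 0, 1.83 and 2.27 CPM at day 2 with DMSO, 4.04 and 4.66 CPM at day 4 and 0.775 and 0.847 CPM at day 8, with its high point also at day 4.

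Wnt4, a ligand of kidney and gonad development that is also made in the neural tube, came on mainly between day 2 and day 4. Its levels were 0.683 and 0.785 CPM at day 0, 3.09 and 2.39 CPM at day 2 with DMSO, 71.0 and 70.7 CPM at day 4 and 11.9 and 8.73 CPM at day 8. It rose 25.7-fold at day 4 against day 2 (4.68 ± 0.15, adjusted p = 7.9e-14), for a total of 95.9-fold against day 0 (6.58 ± 0.18, adjusted p = 6.1e-15), and fell 6.86-fold at day 8 against day 4 (-2.78 ± 0.12, adjusted p = 3.2e-11). Among ligands with at least 5 CPM, Wnt4 had the largest rise at day 4 against day 2.

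Wnt5a, which signals mostly without β-catenin and guides cell movement and polarity, rose up to day 4 and kept most of that level. It had 1.37 and 0.953 CPM at day 0, 26.2 and 26.8 CPM at day 2 with DMSO, 78.0 and 76.9 CPM at day 4 and 61.7 and 69.2 CPM at day 8. The rise at day 4 against day 0 was 66.1-fold (6.05 ± 0.13, adjusted p = 3.4e-16) and that at day 4 against day 2 was 2.93-fold (1.55 ± 0.08, adjusted p = 7.0e-11). At day 8 against day 4 it was called slightly lower, -0.24 ± 0.08, adjusted p = 0.018. Its paralogue Wnt5b instead peaked at day 2, with 3.41 and 3.42 CPM at day 0, 33.0 and 26.9 CPM at day 2 with DMSO, 6.77 and 8.16 CPM at day 4 and 8.52 and 9.05 CPM at day 8. Wnt5b fell 4.02-fold at day 4 against day 2 (-2.01 ± 0.14, adjusted p = 1.8e-09).

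Wnt7a and Wnt7b, paralogues that act in the forebrain and its vessels, were the ligands that reached their highest levels in day 8 cells, together with Wnt8a. Wnt7b had 0.0525 and 0.168 CPM at day 0 from 4 counts in all, 10.3 and 9.43 CPM at day 2 with DMSO, 5.98 and 8.55 CPM at day 4 and 56.5 and 47.2 CPM at day 8. It rose 7.15-fold at day 8 against day 4 (2.84 ± 0.15, adjusted p = 2.6e-10). Its log2 fold change at day 2 against day 0 was 6.42 ± 0.37, adjusted p = 1.7e-10; without the first or the second day 0 library it was 5.82 or 7.38. Wnt7a was on at day 0, with 6.51 and 6.78 CPM, low at day 2 with DMSO, with 0.628 and 0.852 CPM, and back to 4.67 and 4.44 CPM at day 4 and 32.4 and 34.6 CPM at day 8. It fell 8.96-fold at day 2 (-3.16 ± 0.21, adjusted p = 1.3e-09), the 1 ligand called lower in that comparison, and rose 7.34-fold at day 8 against day 4 (2.88 ± 0.14, adjusted p = 7.2e-11).

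Wnt8a had 1.52 and 1.28 CPM at day 4 and 4.49 and 6.46 CPM at day 8, a 3.89-fold rise (1.96 ± 0.29, adjusted p = 3.7e-05). Wnt10b had its highest mean at day 2, with 7.80 and 6.42 CPM against 0.158 and 0 CPM at day 0 from 3 counts, a ratio of 87.8 with a 95% counting interval of 29.7 to 428. Its fitted log2 fold change was 6.34 ± 0.53, adjusted p = 1.9e-08, and without the first or the second day 0 library it was 10.08 or 5.44. Wnt10b lies 11.7 kb from Wnt1. Wnt6 and Wnt8b, at most 4.45 CPM in these groups, also rose at day 2 and fell at day 4, while Wnt9a, Wnt9b and Wnt11 had their highest means without drug at day 4, between 2.44 and 5.16 CPM per library. Wnt2 and Wnt16 stayed under 1 CPM in each library without drug, and Wnt2b lay between 1.63 and 3.66 CPM.

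With MS-275, 6 of 18 tested ligands rose, 6 fell and 6 were not called, shares near those of all genes (31.9% higher, 31.4% lower). Wnt1 fell most, with 5.30 and 3.78 CPM with MS-275 and 30.4 and 31.5 CPM with DMSO, a 6.81-fold fall (-2.77 ± 0.15, adjusted p = 3.9e-10). Wnt7b had 1.63 and 1.99 CPM with MS-275 and 10.3 and 9.43 CPM with DMSO (-2.44 ± 0.21, adjusted p = 3.7e-08). Wnt5b had 10.8 and 9.65 CPM with MS-275 and 33.0 and 26.9 CPM with DMSO (-1.55 ± 0.13, adjusted p = 3.4e-08), and Wnt5a had 9.01 and 9.30 CPM with MS-275 and 26.2 and 26.8 CPM with DMSO (-1.53 ± 0.10, adjusted p = 1.4e-09). Wnt3 and Wnt3a were called lower as well, at 7.47 and 7.91 CPM and 1.04 and 0.995 CPM with MS-275. The libraries of the 2 arms did not overlap for any of these 6 genes, as for 81.5% of all genes.

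In the other direction, Wnt8a had 11.3 and 12.8 CPM with MS-275 and 1.31 and 0.682 CPM with DMSO, an 11.9-fold rise (3.58 ± 0.29, adjusted p = 1.8e-08). Wnt7a had 7.03 and 6.22 CPM with MS-275 and 0.628 and 0.852 CPM with DMSO (3.16 ± 0.21, adjusted p = 1.9e-09); at day 0 it had 6.51 and 6.78 CPM. Wnt9a had 8.21 and 7.26 CPM with MS-275 and 2.51 and 2.5002 CPM with DMSO (1.62 ± 0.21, adjusted p = 3.9e-06). Wnt11, Wnt16 and Wnt2 also rose, reaching 1.94 to 5.44 CPM per library with MS-275. Their libraries with DMSO lay between 0.0568 and 0.796 CPM. The summed ligand level was 92.6 and 89.6 CPM with MS-275 and 147 and 136 CPM with DMSO, while 18 and 17 of 19 ligands reached 1 CPM with MS-275 and 14 and 13 with DMSO. More ligands were thus detected with the drug at a lower total. Over the same libraries the sum of the 6 fibroblast and mesenchyme markers was 563 and 518 CPM with MS-275 and 38.7 and 39.4 CPM with DMSO. That of the pluripotency markers was 123 and 129 CPM with MS-275 and 51.7 and 49.5 CPM with DMSO. The neural stem and progenitor markers summed to 842 and 788 CPM with MS-275 and 823 and 820 CPM with DMSO. The neuronal markers summed to 325 and 339 CPM with MS-275 and 296 and 271 CPM with DMSO. Primitive streak and mesoderm markers summed to 13.0 and 12.9 CPM with MS-275 and 2.83 and 2.22 CPM with DMSO. Astrocyte and oligodendrocyte markers summed to 85.4 and 85.4 CPM with MS-275 and 67.9 and 63.8 CPM with DMSO. The part of these markers in the results was not tested.

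**Figure D2:**
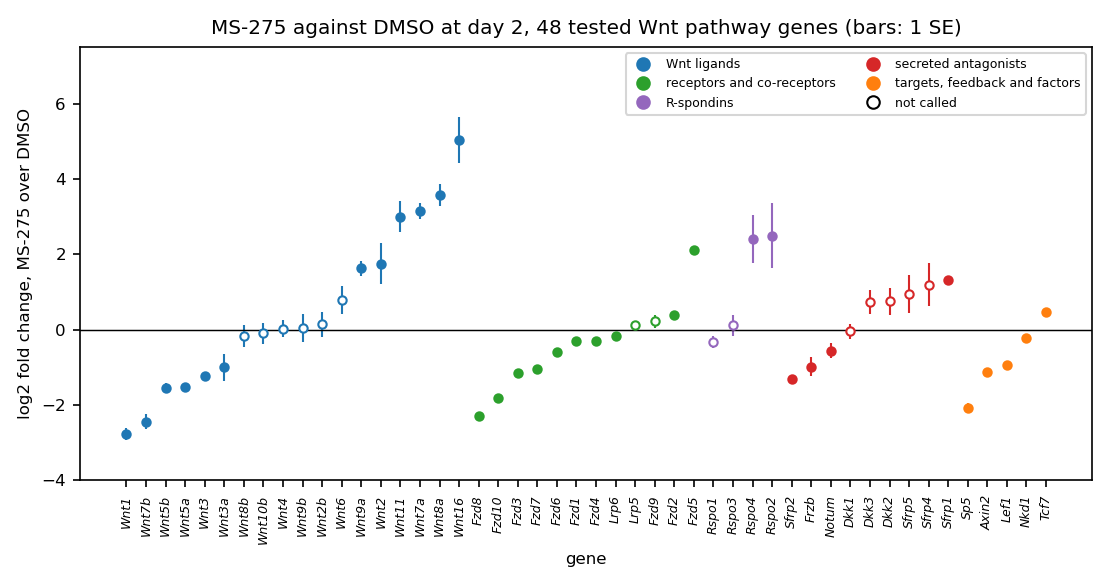
Log2 fold change of MS-275 over DMSO at day 2 for the 48 tested genes, grouped by role and ordered by size within a role. Filled points passed an adjusted p of 0.05, open points did not, and bars are 1 SE. Ligands run from Wnt1 at -2.77 to Wnt16 at 5.04, and 8 of 12 receptors and co-receptors are called below 0, against 31.4% of all genes.

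Receptors were present from the start, and single Frizzled genes moved in both directions over the time course. At day 2 with DMSO against day 0, 7 of 12 receptors and co-receptors rose and 4 fell, where 32.4% of all genes rose and 32.2% fell. At day 4 against day 0, 5 rose and 4 fell, near the shares of all genes (36.2% higher, 36.1% lower). At day 8 against day 4, 8 fell and 4 were not called, where 19.8% of all genes fell. At day 4 against day 0, Fzd10 and Fzd8 had the largest rises among the 10 Frizzled genes, and Fzd4 and Fzd5 the largest falls.

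Fzd10, a receptor of the dorsal neural tube, had 11.5 and 11.9 CPM at day 0, 292 and 288 CPM at day 2 with DMSO, 425 and 471 CPM at day 4 and 92.0 and 104 CPM at day 8. It rose 24.7-fold at day 2 against day 0 (4.63 ± 0.08, adjusted p = 7.3e-17), stood 38.2-fold above day 0 at day 4 (5.26 ± 0.08, adjusted p = 8.1e-18) and fell 4.59-fold at day 8 against day 4 (-2.20 ± 0.07, adjusted p = 4.4e-13). Fzd8 peaked at day 2, with 5.83 and 4.88 CPM at day 0, 148 and 138 CPM at day 2 with DMSO, 33.8 and 37.1 CPM at day 4 and 26.3 and 26.1 CPM at day 8. Its rise at day 2 was 26.6-fold (4.74 ± 0.10, adjusted p = 5.1e-16) and its fall at day 4 against day 2 was 4.04-fold (-2.01 ± 0.08, adjusted p = 1.1e-12). Fzd7 also had its highest mean at day 2, with 85.6 and 81.7 CPM at day 0, 225 and 238 CPM at day 2 with DMSO, 83.0 and 89.1 CPM at day 4 and 57.3 and 65.2 CPM at day 8. It rose 2.77-fold at day 2 (1.47 ± 0.09, adjusted p = 4.5e-10) and fell 2.69-fold at day 4 (-1.43 ± 0.09, adjusted p = 6.4e-10).

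Fzd3, a receptor needed for axon tracts, rose 4.92-fold at day 2 (2.30 ± 0.08, adjusted p = 2.6e-13) and slightly more at day 4 against day 2 (0.35 ± 0.07, adjusted p = 4.6e-04), with 50.5 and 48.8 CPM at day 0, 232 and 257 CPM at day 2 with DMSO, 326 and 298 CPM at day 4 and 289 and 341 CPM at day 8. Fzd1 and Fzd9 rose between day 2 and day 4: Fzd1 by 5.27-fold (2.398 ± 0.10, adjusted p = 1.4e-12), to 100.1 and 95.1 CPM at day 4, against 17.6 and 19.4 CPM at day 2, and Fzd9 by 2.45-fold (1.30 ± 0.16, adjusted p = 1.6e-06), to 14.2 and 13.6 CPM at day 4, against 6.33 and 4.94 CPM at day 2. At day 8, Fzd1 stood at 52.0 and 47.3 CPM and was called lower than at day 4.

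Fzd5, Fzd4 and Fzd6 were lower at day 4 than at day 0. Fzd5 had 75.6 and 73.9 CPM at day 0, 22.3 and 21.9 CPM at day 2 with DMSO, 20.6 and 22.5 CPM at day 4 and 6.87 and 7.46 CPM at day 8, a fall in 2 steps of 3.38-fold at day 2 (-1.75 ± 0.09, adjusted p = 3.6e-11) and 3.004-fold at day 8 against day 4 (-1.59 ± 0.11, adjusted p = 1.0e-08). Fzd4 fell 5.29-fold at day 4 against day 2 (-2.405 ± 0.11, adjusted p = 1.3e-11), with 7.60 and 9.16 CPM at day 4 and 41.2 and 47.5 CPM at day 2. Fzd4 overlaps Tmem135, so reads of the pair may not be fully separable. Fzd6 fell 2.11-fold at day 4 against day 0 (-1.07 ± 0.09, adjusted p = 1.6e-08), with 21.7 and 24.0 CPM at day 4 and 48.7 and 47.6 CPM at day 0. Fzd2 stayed between 138 and 187 CPM without drug and was called in 1 of the 4 comparisons along the time course, a change of -0.34 ± 0.07 at day 8 against day 4.

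The co-receptors changed by less than 2-fold at each step. Lrp5 had 141 and 131 CPM at day 0, 110.1 and 106 CPM at day 2 with DMSO, 77.5 and 87.8 CPM at day 4 and 73.4 and 74.3 CPM at day 8, and was called lower at day 2, at day 4 against day 2 and at day 4 against day 0 (-0.72 ± 0.07, adjusted p = 6.1e-08). Lrp6 had 182 and 181 CPM at day 0, 266 and 267 CPM at day 2 with DMSO, 176 and 187 CPM at day 4 and 150.3 and 165 CPM at day 8. It was called higher at day 2 (0.55 ± 0.05, adjusted p = 1.5e-07) and lower at day 4 against day 2 (-0.55 ± 0.05, adjusted p = 1.6e-07). At day 8 against day 4 its change of -0.21 ± 0.06, adjusted p = 0.0065 lost its call without the second day 4 library (adjusted p = 0.06).

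MS-275 lowered 8 of 12 receptors and co-receptors and raised 2, where 31.4% of all genes were called lower and 31.9% higher. Fzd8 had 30.1 and 28.3 CPM with MS-275 and 148 and 138 CPM with DMSO, a 4.90-fold fall (-2.29 ± 0.08, adjusted p = 9.2e-13). Fzd10 had 80.0 and 84.0 CPM with MS-275 and 292 and 288 CPM with DMSO, a 3.54-fold fall (-1.82 ± 0.07, adjusted p = 1.3e-12). Fzd3 had 109 and 109 CPM with MS-275 and 232 and 257 CPM with DMSO (-1.16 ± 0.08, adjusted p = 1.2e-09). Fzd7 had 99.0 and 126 CPM with MS-275 and 225 and 238 CPM with DMSO (-1.04 ± 0.09, adjusted p = 3.4e-08). Fzd5 went the other way, with 104 and 88.3 CPM with MS-275 and 22.3 and 21.9 CPM with DMSO, a 4.34-fold rise (2.12 ± 0.09, adjusted p = 7.9e-12); at day 0 it had 75.6 and 73.9 CPM. Lrp5 did not pass the test (0.12 ± 0.07, adjusted p = 0.14), and Lrp6 changed by -0.18 ± 0.05, adjusted p = 0.0079. The other called receptors changed by less than 2-fold.

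Of the R-spondins, Rspo1 changed most at day 2. It had 0.998 and 0.672 CPM at day 0, 17.9 and 15.8 CPM at day 2 with DMSO, 2.78 and 2.89 CPM at day 4 and 2.17 and 1.43 CPM at day 8, with a 19.9-fold rise at day 2 (4.32 ± 0.23, adjusted p = 6.4e-11) and a 5.94-fold fall at day 4 (-2.57 ± 0.19, adjusted p = 4.2e-09). Rspo3 lay between 1.99 and 4.09 CPM in all libraries, highest at day 0. Rspo2 and Rspo4 did not exceed 1.69 CPM in any library; both were called higher with MS-275. Rspo1 had 13.3 and 13.7 CPM with MS-275 and 17.9 and 15.8 CPM with DMSO, a change that did not pass the test (-0.32 ± 0.16, adjusted p = 0.091).

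Secreted antagonists moved in both directions. At day 2 with DMSO against day 0, 5 of 9 tested antagonists rose and 2 fell (32.4% and 32.2% of all genes). At day 4 against day 0, 4 rose and 4 fell (36.2% and 36.1% of all genes). At day 8 against day 4, 3 rose and 1 fell (21.7% and 19.8% of all genes). Dkk1, which blocks Lrp5 and Lrp6, had no count at day 0, 9.16 and 9.26 CPM at day 2 with DMSO, 0.787 and 0.999 CPM at day 4 and 1.14 and 1.54 CPM at day 8. It was at least 113-fold higher at day 2 than at day 0 (adjusted p = 2.3e-10) and fell 10.3-fold at day 4 against day 2 (-3.36 ± 0.26, adjusted p = 1.5e-08). Dkk2 ran the other way in time, with 0.785 and 1.08 CPM at day 2, 4.88 and 5.05 CPM at day 4 and 6.20 and 8.15 CPM at day 8. Dkk3 lay between 0.888 and 3.28 CPM in all libraries.

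Notum, an enzyme that strips the lipid from Wnt proteins and is itself induced by Wnt signalling, had 0.473 and 0.448 CPM at day 0, 5.23 and 5.17 CPM at day 2 with DMSO, 43.3 and 54.3 CPM at day 4 and 4.34 and 6.51 CPM at day 8. It rose 11.1-fold at day 2 (3.48 ± 0.31, adjusted p = 4.6e-08) and 9.37-fold more at day 4 (3.23 ± 0.16, adjusted p = 2.8e-11), then fell 8.996-fold at day 8 (-3.17 ± 0.16, adjusted p = 1.6e-10). Frzb rose 36.2-fold at day 2 (5.18 ± 0.39, adjusted p = 5.1e-09), with 6.44 and 5.80 CPM at day 2 against 0.210 and 0.112 CPM at day 0, and stood at 6.09 and 5.29 CPM at day 8.

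Sfrp1 and Sfrp2, which bind Wnt proteins outside the cell, dipped at day 4. Sfrp1 had 99.1 and 102 CPM at day 0, 79.6 and 78.8 CPM at day 2 with DMSO, 49.9 and 53.2 CPM at day 4 and 94.4 and 99.4 CPM at day 8, and was called higher at day 8 against day 4 (0.91 ± 0.06, adjusted p = 3.8e-09). Sfrp2 had 37.6 and 38.2 CPM at day 0, 48.3 and 46.6 CPM at day 2 with DMSO, 24.96 and 28.6 CPM at day 4 and 66.3 and 68.3 CPM at day 8, a 2.51-fold rise at day 8 against day 4 (1.33 ± 0.09, adjusted p = 3.3e-09). Both were thus lowest when Wnt1, Wnt3, Wnt4 and Notum were highest. Sfrp4 fell at day 2 and stayed under 5 CPM, and Sfrp5 stayed under 2 CPM in all libraries with no call.

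With MS-275 the antagonists Sfrp1 and Sfrp2 moved in opposite directions. Sfrp1 had 198 and 195 CPM with MS-275 and 79.6 and 78.8 CPM with DMSO, a 2.48-fold rise (1.31 ± 0.06, adjusted p = 1.4e-11). Sfrp2 had 20.8 and 17.6 CPM with MS-275 and 48.3 and 46.6 CPM with DMSO, a 2.47-fold fall (-1.31 ± 0.09, adjusted p = 3.2e-09). Neither pair of libraries overlapped. Of the 9 tested antagonists, 1 rose, 3 fell and 5 were not called. Of all genes 31.9% rose and 31.4% fell, so the antagonists' falls lay near that share. Frzb was the other clear fall, at 3.66 and 2.54 CPM with MS-275 and 6.44 and 5.80 CPM with DMSO. Dkk1 had 9.55 and 8.36 CPM with MS-275 and 9.16 and 9.26 CPM with DMSO, with no call (-0.04 ± 0.20, adjusted p = 0.87). Notum had 3.56 and 3.48 CPM with MS-275 and 5.23 and 5.17 CPM with DMSO (-0.56 ± 0.20, adjusted p = 0.024), a call lost on leaving out each of the 4 libraries in turn (adjusted p of 0.07 to 0.085).

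Of the 5 targets, feedback genes and factors, 4 rose up to day 4 and fell at day 8, while Tcf7 fell at each step. Other reported targets, given further below, did not all follow this course. Axin2, a scaffold of the β-catenin destruction complex and a feedback target, had 10.7 and 8.74 CPM at day 0, 193 and 189 CPM at day 2 with DMSO, 261 and 275.5 CPM at day 4 and 77.2 and 80.0 CPM at day 8. It rose 19.6-fold at day 2 (4.29 ± 0.08, adjusted p = 1.3e-16), stood 27.5-fold above day 0 at day 4 (4.78 ± 0.08, adjusted p = 1.6e-17) and fell 3.41-fold at day 8 against day 4 (-1.77 ± 0.06, adjusted p = 3.5e-12). Sp5, a zinc finger repressor and target, had 0.0525 and 0.112 CPM at day 0 from 3 counts, 26.3 and 23.9 CPM at day 2 with DMSO, 42.6 and 45.3 CPM at day 4 and 1.55 and 2.59 CPM at day 8. Its ratio at day 4 to day 0 was 540.2, with a 95% counting interval of 185 to 2622 (adjusted p = 1.4e-14). Its log2 fold change at day 8 against day 4 was -4.41 ± 0.16, adjusted p = 3.7e-12.

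Nkd1, which binds Dishevelled and restrains it, rose in 2 steps. It had 10.2 and 11.9 CPM at day 0, 47.6 and 45.1 CPM at day 2 with DMSO, 275.4 and 301 CPM at day 4 and 40.2 and 35.5 CPM at day 8, a 4.19-fold rise at day 2 (2.07 ± 0.10, adjusted p = 1.1e-11), a 6.22-fold rise at day 4 against day 2 (2.64 ± 0.08, adjusted p = 3.2e-14) and a 7.62-fold fall at day 8 (-2.93 ± 0.08, adjusted p = 2.3e-13). The 2 factors moved apart. Lef1 had 19.2 and 16.8 CPM at day 0, 30.2 and 32.2 CPM at day 2 with DMSO, 36.1 and 45.5 CPM at day 4 and 15.2 and 16.6 CPM at day 8; it rose 2.26-fold at day 4 against day 0 (1.18 ± 0.11, adjusted p = 6.1e-08) and fell 2.56-fold at day 8 (-1.36 ± 0.11, adjusted p = 6.1e-08). Its change at day 4 against day 2 (0.38 ± 0.11, adjusted p = 0.0048) lost its call without the second day 4 library (0.23, adjusted p = 0.11) or the first DMSO library (0.33, adjusted p = 0.056).

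Tcf7, which encodes the factor Tcf1, fell throughout, with 102 and 94.9 CPM at day 0, 56.6 and 59.9 CPM at day 2 with DMSO, 21.9 and 23.7 CPM at day 4 and 16.2 and 17.1 CPM at day 8. The fall at day 4 against day 0 was 4.32-fold (-2.11 ± 0.08, adjusted p = 1.9e-13), and the gene was called lower in each of the 4 comparisons along the time course. Tcf7 overlaps Skp1, so reads of the pair may not be fully separable. At day 8 against day 4 all 5 genes of this role were called lower, where 19.8% of all genes were.

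MS-275 lowered 4 of the 5 and raised Tcf7, where 31.4% of all genes were called lower and 31.9% higher. Sp5 had 6.19 and 5.67 CPM with MS-275 and 26.3 and 23.9 CPM with DMSO, a 4.24-fold fall (-2.08 ± 0.14, adjusted p = 1.5e-09). Axin2 had 87.5 and 88.5 CPM with MS-275 and 193 and 189 CPM with DMSO, a 2.17-fold fall (-1.12 ± 0.06, adjusted p = 2.2e-10). Lef1 had 15.4 and 17.0 CPM with MS-275 and 30.2 and 32.2 CPM with DMSO (-0.94 ± 0.11, adjusted p = 2.1e-06). Tcf7 had 82.2 and 79.4 CPM with MS-275 and 56.6 and 59.9 CPM with DMSO (0.47 ± 0.07, adjusted p = 1.9e-05). Nkd1 had 38.9 and 40.4 CPM with MS-275 and 47.6 and 45.1 CPM with DMSO (-0.23 ± 0.08, adjusted p = 0.023), and this call was lost without the first MS-275 library (adjusted p = 0.1) or the first DMSO library (adjusted p = 0.14).

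**Figure D3:**
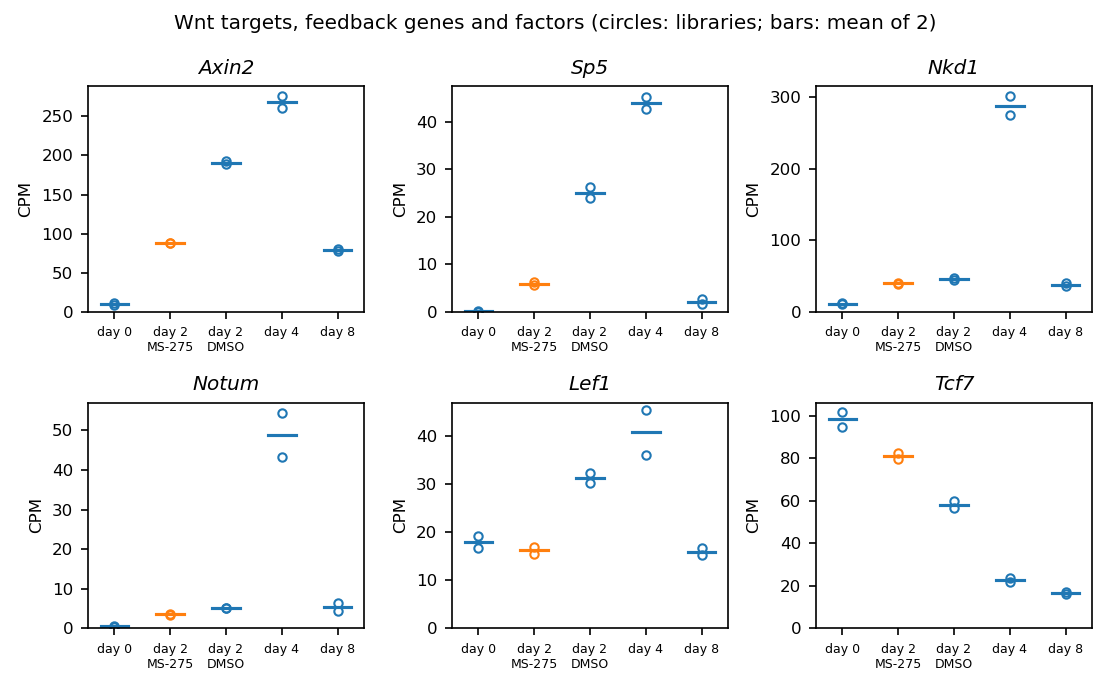
Levels in CPM of 6 genes that report or restrain Wnt signalling, in each library. Circles are libraries, bars the mean of 2, and orange marks MS-275. Axin2, Sp5, Nkd1, Notum and Lef1 are highest at day 4 and lower at day 8, while Tcf7 falls at each step, to 16.2 and 17.1 CPM at day 8.

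Another 74 Wnt pathway genes gave the setting, and 72 were tested. Of these, 40 rose and 19 fell at day 2 with DMSO against day 0, 45 rose and 12 fell at day 4 against day 0, 39 rose and 20 fell at day 4 against day 2, 23 rose and 29 fell at day 8 against day 4, and 24 rose and 32 fell with MS-275. The share called higher with MS-275 lay near the 31.9% of all genes; the other shares of all genes are those given above for each comparison. Of the 7 genes of Wnt secretion and receptor turnover, 6 rose and 1 was not called at day 4 against day 0 (36.2% of all genes rose). At day 8 against day 4, 5 fell and 2 were not called (19.8% of all genes fell). Lgr5, the R-spondin receptor and a Wnt target, was the largest of these rises, with 0.105 and 0.112 CPM at day 0, 6.23 and 6.42 CPM at day 2 with DMSO, 68.8 and 65.2 CPM at day 4 and 8.83 and 11.96 CPM at day 8. It fell 6.45-fold at day 8 against day 4 (-2.69 ± 0.14, adjusted p = 1.9e-10).

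Draxin, a secreted antagonist that guides commissural axons, had 2.73 and 2.69 CPM at day 0, 149.99 and 154 CPM at day 2 with DMSO, 231 and 241 CPM at day 4 and 129.6 and 126 CPM at day 8 (6.44 ± 0.09, adjusted p = 1.3e-18 at day 4 against day 0). Wif1, an antagonist that binds Wnt proteins, fell 4.72-fold at day 8, with 4.03 and 3.65 CPM at day 8 and 17.6 and 18.8 CPM at day 4. Tcf7l1, the repressive Tcf factor of pluripotent cells, fell 6.398-fold at day 4 against day 0 (-2.68 ± 0.09, adjusted p = 5.7e-14), with 29.8 and 34.2 CPM at day 4 and 207 and 202 CPM at day 0. Apc2, an Apc paralogue of neural tissue, rose 17.7-fold at day 4 against day 2 (4.14 ± 0.08, adjusted p = 6.9e-16), and Daam2, a formin linked to Dishevelled, rose 17.3-fold (4.11 ± 0.19, adjusted p = 1.1e-11).

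Cdx1, a caudal homeobox target, had 43.7 and 41.1 CPM with MS-275 and 5.07 and 5.97 CPM with DMSO (2.94 ± 0.17, adjusted p = 2.7e-10), and was at 0.157 and 0 CPM at day 4. Of the 9 tested targets on that list, 4 rose with MS-275 (Cd44, Cdx1, Cdx2 and T) and 3 fell (Ccnd1, Myc and Tnfrsf19). Of all genes, 31.9% rose and 31.4% fell, so the falls lay near that share. Reported targets did not all move with Axin2 and Sp5. Lgr6, another R-spondin receptor, had 11.2 and 7.81 CPM with MS-275 and 0.209 and 0.227 CPM with DMSO (5.40 ± 0.53, adjusted p = 1.8e-07), and Tle2, a co-repressor, had 10.2 and 12.4 CPM with MS-275 and 1.05 and 0.682 CPM with DMSO (3.69 ± 0.26, adjusted p = 3.8e-09). Gpc6, a glypican, fell 3.76-fold (-1.91 ± 0.12, adjusted p = 9.4e-10), and Trabd2b, a protease that inactivates Wnt proteins, fell 3.54-fold (-1.83 ± 0.16, adjusted p = 3.6e-08). Cdx1 lay outside the naming rule for this comparison and was chosen after its values were seen.

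Near the ends of these genes, acetylation and crotonylation of H3K9 were nearly general at day 4, and open chromatin was not. A gene was counted for a mark when a peak overlapped the 1 kb on either side of its start or end, in both libraries. H3K9ac peaks lay near 47 of the 50 members (94.0%, against 61.3% of 21887 protein-coding genes), H3K9cr peaks near 46 (92.0%, against 59.7%) and H3K18la peaks near 36 (72.0%, against 50.9%). ATAC peaks lay near 24 (48%, against 48.1%), the share of all genes. All 3 marks were found near 35 members (70.0%, against 49.4%). No mark was found near 3 members, Wnt2, Rspo4 and Dkk4 (6%, against 37.7%).

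Open chromatin divided the roles. ATAC peaks in both libraries lay near 11 of 12 receptors and co-receptors, all but Lrp5, and near 3 of 19 ligands, Wnt7a, Wnt10a and Wnt16. They lay near 2 of 4 R-spondins, 5 of 10 antagonists and 3 of 5 targets and factors. All 12 receptors and co-receptors also had all 3 histone marks, and 18 of 19 ligands had H3K9ac and H3K9cr peaks. With a peak in either library, 8 ligands counted, against 54.5% of all protein-coding genes. With windows of 2.5 kb the ligands numbered 4, the receptors 11 and the targets and factors 5 of 5, against 52.6% of all protein-coding genes. Over the gene body with 1 kb on both sides they numbered 7, 11 and 5, against 56.7%. In the 1 kb windows, none of the 9 ligands with their highest mean without drug at day 4 had an ATAC peak in both libraries. Wnt1 had a peak in the second library, with an authors' fold enrichment of 6.10, and Wnt4 in the first, with 5.80. Which ligands the wider windows added is not given here.

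Fold enrichments here and below are the authors' values for single peaks, taken over the local background. At Axin2 the RefSeq gene starts upstream of the promoter window listed for it, and peaks over that window (chr11:108920099-108920398, GRCm38.p6) are given. ATAC peaks covered it in both day 4 libraries, with fold enrichments of 5.95 and 5.23. H3K9ac peaks there had fold enrichments of 119 and 70.6 at day 4, and H3K9cr peaks 106 and 53.6. At the Sp5 window shown above, H3K9ac peaks had 51.6 and 45.8, and H3K9cr peaks 42.7 and 36.5, with an ATAC peak in the first library alone. At the Dkk1 window, whose RNA had already fallen by day 4, H3K9ac peaks had 13.7 and 11.0, and ATAC peaks 6.44 and 7.22 in the 2 libraries. At Wnt4, H3K9ac peaks of day 4 were 3.64 and 3.65 kb long with fold enrichments of 24.2 and 41.1; the day 2 peak with DMSO was 0.82 kb long with 8.51.

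**Figure D4:**
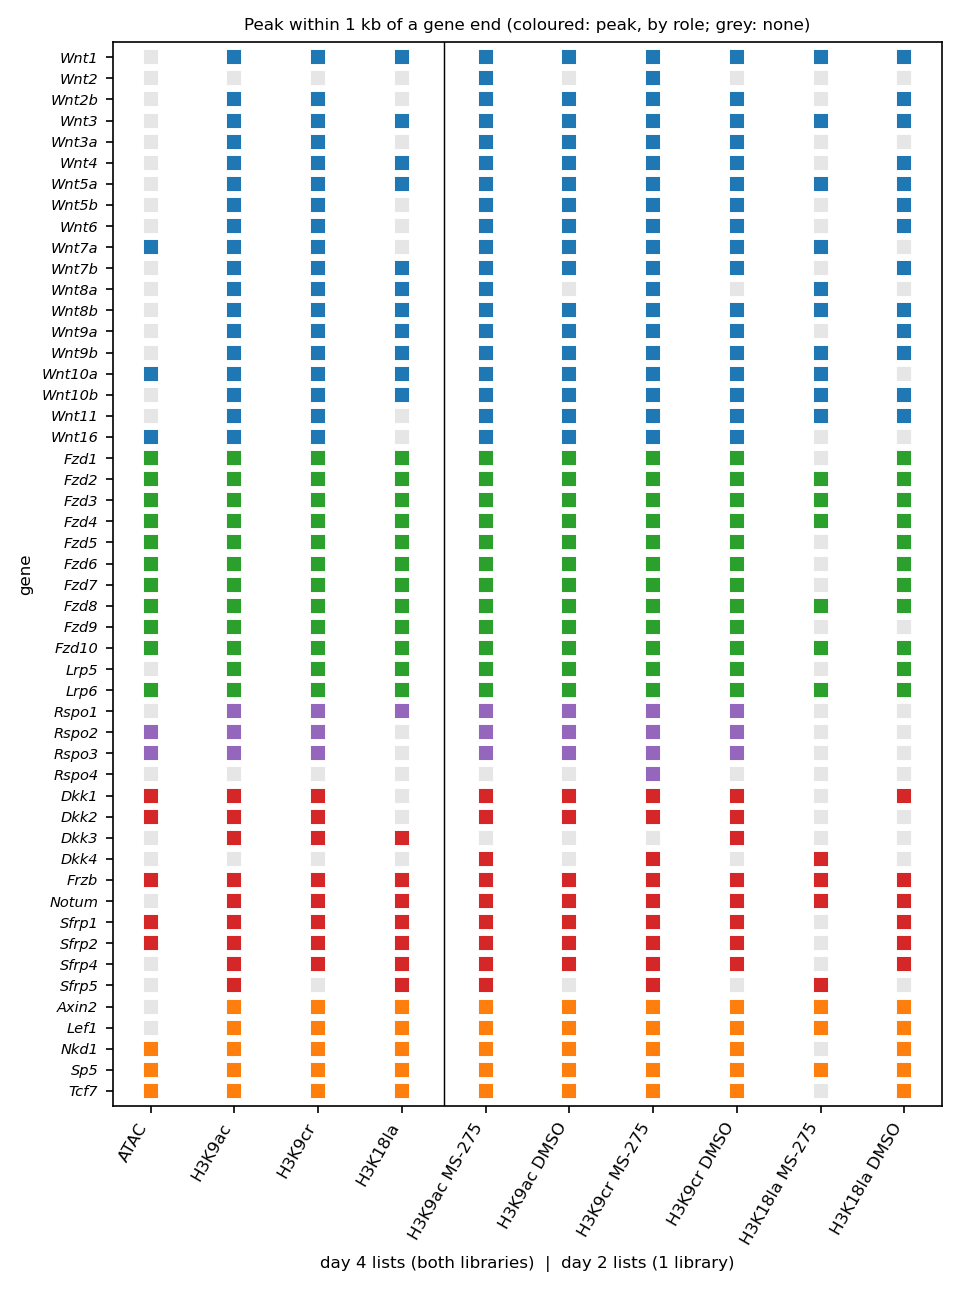
Peaks near the 50 genes, in rows by role. Coloured squares mark a peak within 1 kb of a gene end and grey squares none, for the day 4 lists (a peak in both libraries) and the day 2 lists (1 library each). The receptor rows are filled in nearly all day 4 columns, the ligand rows are mostly grey for ATAC, and 23 squares are filled for H3K18la with MS-275, against 35 with DMSO.

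At day 2 each mark had 1 library per arm, so differences between MS-275 and DMSO have no replicate check. H3K9ac peaks lay near 48 members with MS-275 (96.0%, against 66.9% of all protein-coding genes) and near 44 with DMSO (88.0%, against 59.4%). H3K9cr peaks lay near 49 with MS-275 (98.0%, against 65.9%) and near 45 with DMSO (90%, against 59.2%). H3K18la ran the other way, with 23 members with MS-275 (46.0%, against 22.2%) and 35 with DMSO (70.0%, against 51.9%). With a peak's summit required inside the window the order of the arms turned for both H3K9 marks: H3K9cr peaks lay near 30 members with MS-275 and 38 with DMSO, and H3K9ac peaks near 35 with MS-275 and 37 with DMSO. H3K18la peaks then lay near 20 with MS-275 and 35 with DMSO, and with windows of 2.5 kb near 34 with MS-275 and 37 with DMSO. With a −log10 q of at least 5 they lay near 15 with MS-275 and 31 with DMSO. The lists themselves differed: the H3K9ac list had 84418 peaks with MS-275 and 26555 with DMSO, the H3K9cr list 70748 with MS-275 and 24874 with DMSO, and the H3K18la list 31577 with MS-275 and 36382 with DMSO. Their part in these counts was not tested.

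Wnt2, Wnt8a, Dkk4 and Sfrp5 had an H3K9ac peak with MS-275 and none with DMSO (8.0% of members, against 7.89% of all genes). They had an H3K9cr peak with MS-275 only as well, as did Rspo4 (10.0%, against 7.16%). Of these 5 genes, Wnt2, Wnt8a and Rspo4 were called higher with MS-275 in RNA, where 31.9% of all genes were. Sfrp5 was not called, and Dkk4 had no count. Wnt2 and Rspo4 stayed low, with means of 2.03 and 1.61 CPM with MS-275. A link between these peaks and RNA was not tested. The most enriched H3K9ac peak at Wnt8a was 7.32 kb long with a fold enrichment of 16.2, and that at Dkk4 was 1.78 kb long with 4.62. H3K18la peaks were lost with MS-275 near 17 members (34.0%, against 32.0%), among them Wnt4, Wnt7b, Fzd5, Fzd7, Nkd1 and Tcf7, and gained near 5 (10.0%, against 2.34%): Wnt7a, Wnt8a, Wnt10a, Dkk4 and Sfrp5.

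H3K9ac and H3K9cr peaks near these genes were mostly wider with MS-275, as they were near most protein-coding genes, while H3K18la peaks were mostly narrower. The widest H3K9ac peak near a gene was wider with MS-275 for 42 of the 44 members with a peak in both lists (95.5%, against 87.6% of 12926 protein-coding genes), with a median ratio of 1.99, against 1.59 for those genes. For H3K9cr it was wider for 42 of 44 (95.5%, against 83.8% of 12850), with a median ratio of 2.28, against 1.59. For H3K18la it was wider for 7 of 18 (38.9%, against 13.0% of 4355), with a median ratio of 0.523, against 0.442. At Wnt1 the H3K9ac peak spanned 25.34 kb with MS-275 and 3.55 kb with DMSO, with fold enrichments of 16.2 with MS-275 and 16.8 with DMSO, while its RNA was lower with the drug. At the Axin2 promoter window the H3K9ac peak spanned 14.87 kb with MS-275 and 4.32 kb with DMSO, with fold enrichments of 31.1 with MS-275 and 103 with DMSO. Over all H3K9ac peaks the median fold enrichment was also lower in the MS-275 list, at 4.73 with MS-275 and 13.8 with DMSO. At Fzd10 the H3K9ac peak spanned 14.51 kb with MS-275 and 8.56 kb with DMSO, with 23.8 with MS-275 and 68.7 with DMSO. Fzd5, whose RNA rose, had a widest H3K9ac peak of 3.99 kb with MS-275 and 3.28 kb with DMSO. Wnt6 and Wnt10a lie 6.7 kb apart, and 1 H3K9ac peak of 9.88 kb with MS-275 counted for both.

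**Figure D5:**
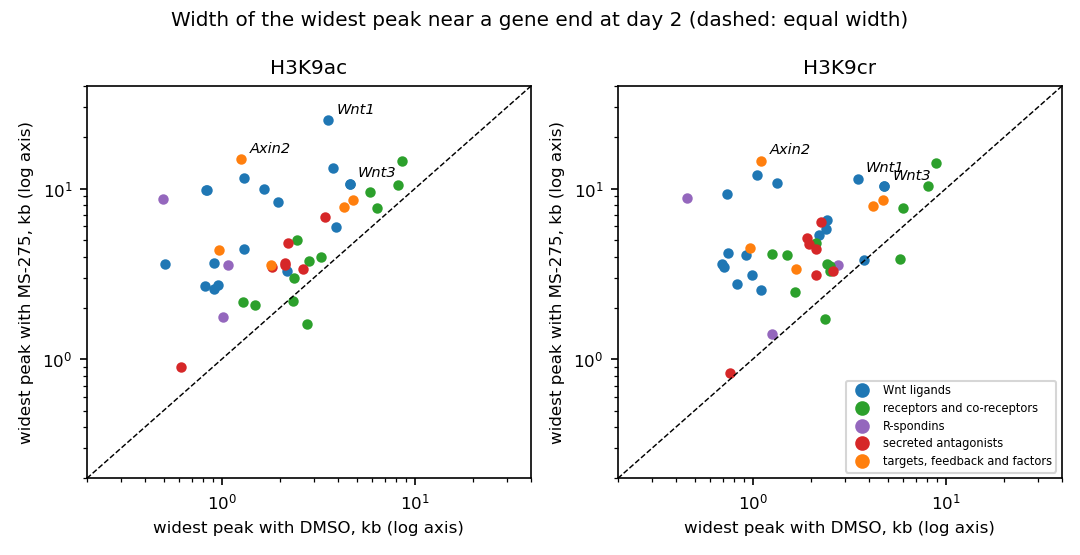
Width in kb, on log axes, of the widest H3K9ac (left) and H3K9cr (right) peak near each gene at day 2, with MS-275 on the y axis and DMSO on the x axis, for the 44 genes with a peak in both lists. Points are coloured by role and the dashed line marks equal width. In each panel 42 of 44 points lie above the line, and Wnt1 reaches 25.34 kb for H3K9ac with MS-275.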

How the data were processed

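The deposited RNA table held estimated counts per gene from 10 libraries. Salmon 1.1.0 is named in the submitters' processing notes, with genome GRCm38, and 19.2% to 25.8% of the values in a library were not whole. They were rounded and tested with edgeR 4.0.16 (R 4.3.3): TMM scaling, filterByExpr, quasi-likelihood fit of 5 groups over all 10 libraries, Benjamini-Hochberg adjustment over 17789 genes, and a call at an adjusted p under 0.05. CPM values are the counts scaled to a library's total times its TMM factor. At day 2 this factor was 1.07 and 1.07 with MS-275 and 0.976 and 0.971 with DMSO. Transcript lengths were not used, so levels are not compared between genes. The fit was also run on counts simulated from its own spread, with few genes changed. In the data 72.3% of genes were called at day 4 against day 0, so that run cannot show how the fit behaves here.

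The 14 deposited peak lists, 1 per library, give per peak the authors' pileup signal, fold enrichment (a ratio) and −log10 p and q values, per the file headers. Bowtie2 2.4.1 and MACS2 2.2.7.1 are named in the submitters' processing notes, and no source used here gives the caller settings. Peaks were joined to RefSeq gene ends (GRCm38.p6) at an overlap of at least 1 base. The 4 input libraries were not analysed here.

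Where a group had no count, its 2 libraries together were given 3 counts as a floor for the fold, and where it had 1 to 3 counts, a ratio with a 95% counting interval was given. Intervals and floors cover counting error only. Of the 50 genes, 17 overlap another gene, and no source used here says whether counting used strand. Genes were given a fold in the text where they were called, changed at least 2-fold and averaged at least 5 CPM in 1 of the groups, with up to 4 per direction and role. Axin2, Sp5, Lef1, Tcf7, Nkd1, Notum, Lrp5 and Lrp6 were always followed, and other genes named were chosen after their values were seen. The members and lists were chosen with earlier results of these data known. Alternatives were DESeq2 1.42.0, its size factors, no filter, the compared groups alone, a replicate block, each library left out, and other peak windows and thresholds.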

Additional observations from a re-analysis of the deposited data

How the results depend on the processing

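The 96 gene comparisons checked were chosen because the main fit had called them on these same libraries. This check could therefore show calls lost or reversed, but none gained. Of their 864 alternative values, 853 kept their direction and their side of the threshold, 11 kept the direction and lost the call, and 0 reversed. Of the 11, 9 came from leaving out a library, at Lef1, Lrp6, Notum and Nkd1 as given above, and 2 from DESeq2 with MS-275, at Notum (-0.54, adjusted p = 0.069) and Nkd1 (-0.20, adjusted p = 0.068). With each library left out in turn, members called higher and lower numbered 29 to 31 and 9 to 10 at day 2 against day 0, 17 to 19 and 13 to 15 at day 4 against day 2, 28 to 30 and 11 to 12 at day 4 against day 0, 7 and 19 to 21 at day 8 against day 4, and 10 to 12 and 17 to 19 with MS-275. Same-numbered libraries shared only a number: over 10 pairs of groups, their deviations from the group means correlated between -0.075 and 0.086. With a replicate block the members called higher and lower were 30 and 9, 20 and 16, 28 and 11, 7 and 22, and 12 and 21 in the same order of comparisons, and no named call changed. With a peak's summit required inside the window, H3K9cr peaks with MS-275 lay near 30 members in place of 49, and with a −log10 q of at least 5, H3K18la peaks with MS-275 lay near 15 in place of 23; the cause was not tested. Windows around the gene start alone were not run, since strand was held for 33 of the 50 genes. Genes with few counts at day 0 (Wnt1, Wnt7b, Wnt10b, Dkk1, Sp5) have folds that depth limits, and peak comparisons at day 2 rest on 1 library per arm.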
